A study of Mus musculus with 12 samples.

Results

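The Hox genes of mouse neural tube were followed over 1 day of gestation. Members were all genes whose symbol in the platform annotation starts with Hoxa, Hoxb, Hoxc or Hoxd and a number, antisense transcripts included. Of 38 such symbols, 36 were measured by 53 probe sets that name a single gene, among 18193 genes in all. The members were 33 protein-coding genes and 3 antisense transcripts (Hoxa11os, Hoxb5os and Hoxd3os1). Hoxd4 and Hoxb8 appeared only on 3 probe sets that name 2 genes each, and were kept apart from the members.

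Neural tubes were dissected from ICR (CD-1) mouse embryos, an outbred stock, at gestation day 8.5 (GD8.5), GD9.0 and GD9.5, which spans neural tube closure in this stock, per the labels. The labels name no mutation or treatment. Messenger RNA of 4 samples per stage, called biological replicates in the labels, was hybridised to 1 Affymetrix Mouse Genome 430 2.0 array each, from 100 ng of total RNA. The labels do not say whether a replicate is 1 embryo, 1 litter or a pool, nor which levels of the body axis each dissection held, so the p-values below measure the spread between these samples only. The GD8.5 group had 2 usable arrays on the log2 scale (replicates 3 and 4), since the values deposited for its replicates 1 and 2 were linear intensities. GD9.0 and GD9.5 had 4 log2 arrays each. Precision is limited by these numbers of arrays.

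Hox genes encode homeodomain transcription factors that lie in clusters on separate chromosomes, where genes at one end are switched on earlier and in more anterior tissue than genes at the other end. Genes of the same number in different clusters are paralogs, and low numbers mark the hindbrain and neck while high numbers mark the trunk and tail. In the neural tube they give hindbrain segments (rhombomeres) and spinal cord levels their identity, and the same genes are active in the mesoderm beside it. Retinoic acid, Cdx factors and, in the hindbrain, Egr2 switch them on, Polycomb proteins keep them silent elsewhere, and Pbx and Meis proteins bind DNA with them.

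A subset of Hox transcripts fell between GD8.5 and GD9.0, and none passed the test in either direction between GD9.0 and GD9.5. With limma and an adjusted p under 0.05 as the call, 15 of 36 Hox genes were lower at GD9.0 compared with GD8.5 and 0 were higher. At an unadjusted p under 0.05 the counts were 19 lower and 0 higher. Over all 18193 genes 6.74% were called lower and 6.78% higher in that comparison. The median log2 change of the 36 Hox genes was -0.29, against -0.0019 over all genes, and 31 of the 36 changes were negative. The arrays of GD9.0 and GD8.5 did not overlap for 19 Hox genes that were lower at GD9.0, where 16.9% of all genes showed that pattern, and for 1 that was higher (17.6% of all genes), Hoxa13, which was named after its values were seen and lay under the background at every stage. In whole tissue, a smaller share of cells with a transcript and less of the transcript per cell cannot be told apart.

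From GD9.0 to GD9.5 limma called 0 of 36 Hox genes, while 24.3% of all genes were called. At an unadjusted p under 0.05, 4 Hox genes were lower and 0 were higher. Only 14 of the 36 had a GD9.0 mean above the background level given below, where 71.5% of all genes did. In the other members a further fall could not be measured. The median log2 change of the Hox genes over this interval was -0.026, against -0.0077 over all genes, with a median SE of 0.086 and no Hox gene beyond 0.28 in size. Over the whole day, GD9.5 against GD8.5, 18 Hox genes were lower and 0 were higher, where 13.1% of all genes were called lower and 15.5% higher. The 18 held all 15 of the first interval, with Hoxa7, Hoxc9 and Hoxd3 added. The arrays of GD9.5 lay under both of GD8.5, with no overlap, for 23 Hox genes (22.7% of all genes). A test of the difference between the 2 intervals, which share the GD9.0 arrays, called 11 Hox genes, all with the more negative change in the first (6.97% of all genes were called in that direction).

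**Figure D1:**
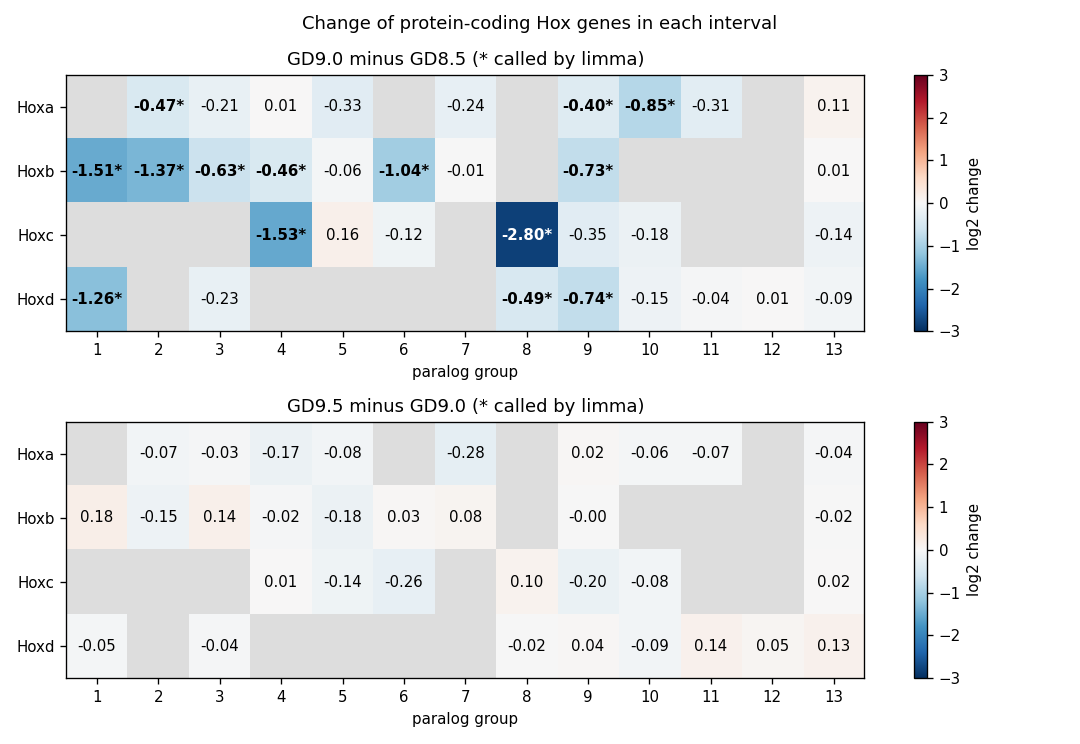
Log2 change of each protein-coding Hox gene, by cluster (rows) and paralog group (columns), for GD9.0 minus GD8.5 (top) and GD9.5 minus GD9.0 (bottom); stars mark genes called by limma and plain grey squares hold no measured gene. The 14 starred genes of the first interval, all negative, lie in every cluster and have no starred counterpart in the second, and a change of a gene under the background at 1 or both stages is a measured difference, not an estimate of its full size.

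Levels are given on the deposited log2 scale, on which the 95th percentile of 39 olfactory receptor genes, 1.42, served as the background. By the brightest probe set of each gene, 21 of the 36 Hox genes had a mean above this level at GD8.5, then 14 at GD9.0 and then 11 at GD9.5, where 72.5%, 71.5% and 70.5% of all genes did. By these probe sets 14 Hox genes lay under the background at all 3 stages, so the size of any fall in them could not be measured with these sets, and 7 of the 15 genes that fell did so to a mean under it. For these 7 a fold is given as a lower bound, from the GD8.5 mean to the background or, where higher, the measured signal.

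**Figure D2:**
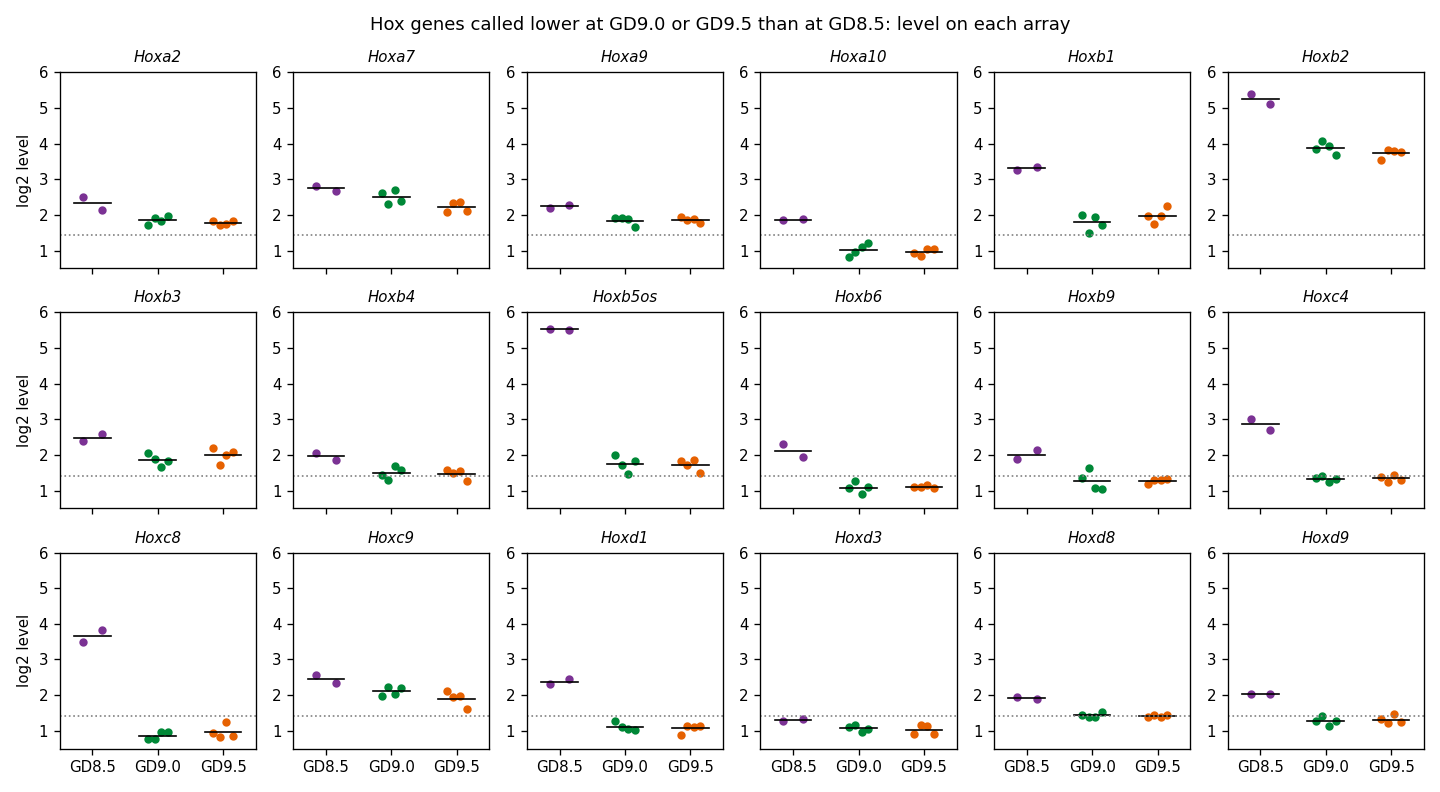
Log2 level on each array (points) and stage mean (bars) of the 18 Hox genes called lower at GD9.0 or GD9.5 compared with GD8.5, with the background level of 1.42 as a dotted line. The 2 arrays of GD8.5 sit above all arrays of the later stages for the 15 genes of the first interval, and the GD9.0 and GD9.5 arrays overlap.

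Genes of paralog groups 1 to 4, which act in the hindbrain and neck, had 7 of 10 members lower at GD9.0. Hoxb1, which gives a mid-hindbrain segment its identity, had log2 levels of 3.26 and 3.36 at GD8.5, then 2.01, 1.49, 1.95 and 1.73 at GD9.0 and then 1.96, 1.74, 1.97 and 2.25 at GD9.5. Both GD8.5 arrays were above every later array, and the later stages overlapped. Hoxb1 was 2.85-fold lower at GD9.0 compared with GD8.5 (log2 change -1.51 ± 0.15 SE, adjusted p = 5.92e-05), and its change from GD9.0 to GD9.5 was 0.18 ± 0.13 (adjusted p = 0.344).

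Hoxb2, which acts with Hoxb1 in facial motor neuron development, measured 5.40 and 5.10 at GD8.5, then 3.86, 4.06, 3.94 and 3.68 at GD9.0 and then 3.56, 3.82, 3.79 and 3.76 at GD9.5 in log2 levels. It stayed far above the background at every stage, with no overlap between GD8.5 and the rest. The level was 2.58-fold lower at GD9.0 compared with GD8.5 (log2 change -1.37 ± 0.12 SE, adjusted p = 1.49e-05) and 2.87-fold lower at GD9.5 compared with GD8.5 (adjusted p = 2.38e-06).

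Hoxa2, which patterns the front of the hindbrain and the second pharyngeal arch, had log2 levels of 2.50 and 2.15 at GD8.5, then 1.72, 1.90, 1.84 and 1.97 at GD9.0 and then 1.84, 1.72, 1.74 and 1.84 at GD9.5. The GD8.5 arrays differed from each other by more than the arrays of the later stages did, without reaching down to them. Hoxa2 was 1.38-fold lower at GD9.0 (log2 change -0.47 ± 0.10 SE, adjusted p = 0.00908), and without GD8.5 replicate 3 the change was -0.29 and lost its call (adjusted p = 0.131).

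Hoxd1, a paralog of Hoxb1, had log2 levels of 2.30 and 2.44 at GD8.5, then 1.26, 1.11, 1.05 and 1.03 at GD9.0 and then 0.88, 1.15, 1.11 and 1.13 at GD9.5. Every array of the later stages lay under the background. Hoxd1 averaged 1.11 ± 0.10 at GD9.0 and 2.37 ± 0.10 at GD8.5 (SD, n = 4 and 2), at least 1.93-fold lower (adjusted p = 4.12e-06).

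In paralog group 3, whose members pattern the back of the hindbrain and the pharynx, Hoxb3 measured 2.38 and 2.60 at GD8.5, then 2.05, 1.88, 1.67 and 1.83 at GD9.0 and then 2.19, 1.73, 2.00 and 2.09 at GD9.5 in log2 levels by its brightest probe set. The stages did not overlap between GD8.5 and either later stage. Hoxb3 was 1.55-fold lower at GD9.0 (log2 change -0.63 ± 0.13 SE, adjusted p = 0.00816), a call lost without GD8.5 replicate 4 (-0.52, adjusted p = 0.109), and the change was 0.057 with all 12 arrays quantile normalized together (adjusted p = 0.925). On the 2 linear GD8.5 arrays this probe set, 1427605_at, ranked at the 33.8 and 21.8 percentiles of its array, against the 60.1 and 62.6 percentiles on the 2 log2 arrays of the same stage.

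Hoxa3 had log2 levels of 1.54 and 1.94 at GD8.5, then 1.41, 1.58, 1.41 and 1.69 at GD9.0 and then 1.48, 1.46, 1.68 and 1.38 at GD9.5. Its stages overlapped, close to the background, and the change of -0.21 ± 0.12 SE from GD8.5 to GD9.0 did not pass (adjusted p = 0.328). Hoxd3 was under the background on every array, at 1.27 and 1.33 at GD8.5, then 1.11, 1.17, 0.96 and 1.06 at GD9.0 and then 0.90, 1.17, 1.13 and 0.92 at GD9.5. Limma called its difference of -0.27 ± 0.09 SE between GD9.5 and GD8.5 (adjusted p = 0.0475), and that call was lost in 10 of 19 alternatives, so no fold is given.

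Group 4 marks the junction of hindbrain and spinal cord. Hoxc4 had log2 levels of 3.02 and 2.70 at GD8.5, then 1.35, 1.42, 1.24 and 1.32 at GD9.0 and then 1.38, 1.25, 1.45 and 1.30 at GD9.5. Signal well above the background at GD8.5 was followed by levels around it at both later stages. Hoxc4 averaged 1.33 ± 0.08 at GD9.0 and 2.86 ± 0.22 at GD8.5 (SD, n = 4 and 2), at least 2.70-fold lower (adjusted p = 7.97e-07).

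Hoxb4 measured 2.07 and 1.87 at GD8.5, then 1.44, 1.30, 1.69 and 1.59 at GD9.0 and then 1.58, 1.49, 1.56 and 1.28 at GD9.5 in log2 levels. The GD8.5 arrays were the 2 highest by a small margin. It was 1.38-fold lower at GD9.0 (log2 change -0.46 ± 0.12 SE, adjusted p = 0.0244), a call lost without GD8.5 replicate 3 (-0.36, adjusted p = 0.213), without GD8.5 replicate 4 (-0.56, adjusted p = 0.0537) and without GD9.0 replicate 1 (-0.44, adjusted p = 0.0541). Hoxa4 lay under the background at all stages, with mean log2 levels of 1.03 at GD8.5, then 1.03 at GD9.0 and then 0.86 at GD9.5.

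The 250 bases before the transcription start of 4 of the 7 genes of groups 1 to 4 that fell are printed to show the letters near their starts, from the RefSeq promoter table on mouse build GRCm38.p6, each read 5′ to 3′ along its gene. Capitals mark the letters of 4 short motifs sought on both strands, of which no matches overlap in these promoters: TGATNNAT, a form of the joint site of Pbx and Hox proteins, TTTATG, a form of the Cdx site, AGGTCA, the core letters of retinoid receptor sites, and CCAAT, the CCAAT box of many promoters. The window of Hoxb1 lies at chr11:96365508-96365757 (plus strand), Hoxa2 at chr6:52164832-52165081 (minus strand), Hoxb4 at chr11:96318017-96318266 (plus strand) and Hoxc4 at chr15:103034145-103034394 (plus strand).
Hoxb1: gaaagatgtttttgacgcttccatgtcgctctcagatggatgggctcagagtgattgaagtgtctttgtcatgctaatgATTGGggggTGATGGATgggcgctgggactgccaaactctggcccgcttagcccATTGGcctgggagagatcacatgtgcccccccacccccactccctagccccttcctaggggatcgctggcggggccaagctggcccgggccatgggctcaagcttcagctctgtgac
Hoxa2: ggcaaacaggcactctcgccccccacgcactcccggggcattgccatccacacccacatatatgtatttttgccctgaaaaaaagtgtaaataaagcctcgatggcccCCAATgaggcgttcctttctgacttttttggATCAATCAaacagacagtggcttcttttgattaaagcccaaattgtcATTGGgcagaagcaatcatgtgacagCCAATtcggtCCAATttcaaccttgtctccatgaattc
Hoxb4: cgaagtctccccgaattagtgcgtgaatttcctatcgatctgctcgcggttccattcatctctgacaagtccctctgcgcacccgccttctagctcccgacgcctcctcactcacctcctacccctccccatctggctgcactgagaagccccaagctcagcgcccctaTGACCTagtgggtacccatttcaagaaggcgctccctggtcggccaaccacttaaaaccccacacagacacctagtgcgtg
Hoxc4: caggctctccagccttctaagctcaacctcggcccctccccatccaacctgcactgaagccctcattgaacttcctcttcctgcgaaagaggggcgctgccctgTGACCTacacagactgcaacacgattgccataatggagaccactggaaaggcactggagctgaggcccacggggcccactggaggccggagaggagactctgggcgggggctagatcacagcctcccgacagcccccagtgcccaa

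The Hoxb1 promoter held TGATGGAT, which matches TGATNNAT, from 162 to 155 bases before the start, between 2 reversed CCAAT boxes. The Hoxa2 promoter held ATCAATCA, the same motif on the other strand, from 111 to 104 bases before the start, and 4 CCAAT boxes. Hoxb4 and Hoxc4 each held TGACCT, the retinoid receptor letters on the other strand, 81 to 76 and 146 to 141 bases before their starts. Hoxd1, whose promoter was also available and was not printed, held 1 CCAAT box and none of the other motifs. The table had 23 promoters for 21 of the 36 Hox genes, 10 of them from 9 genes that were lower at GD9.0.

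TGATNNAT occurred in 2 of the 10 promoters of lower genes and in 1 of the 13 others, against 7.68% of all 32851 promoters of this length. The counts were 3 of 10 and 2 of 13 for AGGTCA (14.0% of all promoters), 0 of 10 and 3 of 13 for TTTATG (10.8%), and 5 of 10 and 6 of 13 for CCAAT (33.8%). The median GC content was 59.2% over the Hox promoters and 52.4% over all promoters, with a median of 13 and 6 CpG dinucleotides. The median CpG count was 7.5 in the 10 promoters of lower genes and 18 in the 13 others. These matches describe letters in the window and say nothing of which factors bound.

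Paralog groups 5 to 8, active in the spinal cord and trunk, had 3 of 9 members lower at GD9.0. Hoxc8, which directs motor neuron identity at forelimb and upper trunk levels, had log2 levels of 3.48 and 3.83 at GD8.5, then 0.75, 0.76, 0.95 and 0.95 at GD9.0 and then 0.94, 0.81, 1.24 and 0.84 at GD9.5. A clear signal at GD8.5 gave way to levels under the background on all 8 later arrays. Hoxc8 averaged 0.86 ± 0.11 at GD9.0 and 3.65 ± 0.25 at GD8.5 (SD, n = 4 and 2), at least 4.69-fold lower (adjusted p = 9.15e-08).

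Hoxb6, a trunk gene of the spinal cord and mesoderm, measured 2.31 and 1.93 at GD8.5, then 1.08, 1.28, 0.90 and 1.09 at GD9.0 and then 1.11, 1.11, 1.16 and 1.09 at GD9.5 in log2 levels. Here too all later arrays were under the background. It averaged 1.09 ± 0.16 at GD9.0 and 2.12 ± 0.27 at GD8.5 (SD, n = 4 and 2), at least 1.62-fold lower (adjusted p = 0.000105).

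Hoxd8, a paralog of Hoxc8, had log2 levels of 1.95 and 1.90 at GD8.5, then 1.45, 1.38, 1.39 and 1.52 at GD9.0 and then 1.39, 1.43, 1.38 and 1.45 at GD9.5. The arrays of a stage lay close together and GD8.5 stood apart. It was 1.40-fold lower at GD9.0 (log2 change -0.49 ± 0.06 SE, adjusted p = 0.000292), a call lost with all 12 arrays quantile normalized together (-0.46, adjusted p = 0.0702).

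Hoxa7 had log2 levels of 2.82 and 2.68 at GD8.5, then 2.62, 2.30, 2.69 and 2.40 at GD9.0 and then 2.09, 2.33, 2.37 and 2.10 at GD9.5. Neighbouring stages overlapped, while GD9.5 and GD8.5 did not. This trunk gene was 1.44-fold lower at GD9.5 compared with GD8.5 (log2 change -0.53 ± 0.12 SE, adjusted p = 0.00711), with changes of -0.24 ± 0.12 in the first interval (adjusted p = 0.244) and -0.28 ± 0.10 in the second (adjusted p = 0.0633). The call over the day was lost without GD8.5 replicate 3 (-0.45, adjusted p = 0.0758) and with all 12 arrays, where the change was -0.04. Hoxa7 was called lower in the second interval without GD9.0 replicate 2 and without GD9.5 replicate 3.

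Hoxa5, which acts in the neck and lung, measured 2.90 and 3.01 at GD8.5, then 2.66, 2.59, 2.52 and 2.74 at GD9.0 and then 2.55, 2.22, 2.95 and 2.44 at GD9.5 in log2 levels. The GD9.0 arrays lay under those of GD8.5, and 1 GD9.5 array lay among them. Its change of -0.33 ± 0.16 SE in the first interval did not pass (adjusted p = 0.217). Among the other members of these groups, by their brightest probe sets, Hoxb5 and Hoxb7 were under the background at all stages, Hoxc6 averaged 1.72 at GD8.5, then 1.60 at GD9.0 and then 1.35 at GD9.5, and Hoxc5 was above the background at GD9.0 only, at 1.54.

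Paralog groups 9 to 13, which pattern the lower trunk, limbs and tail, had 4 of 14 members lower at GD9.0, all of groups 9 and 10. Hoxa10, which acts at lumbar levels, had log2 levels of 1.85 and 1.89 at GD8.5, then 0.83, 0.97, 1.10 and 1.21 at GD9.0 and then 0.92, 0.84, 1.05 and 1.05 at GD9.5. All 8 later arrays were under the background. Hoxa10 averaged 1.03 ± 0.16 at GD9.0 and 1.87 ± 0.03 at GD8.5 (SD, n = 4 and 2), at least 1.36-fold lower (adjusted p = 0.000211). Its probe set, 1431475_a_at, ranked at the 66.2 and 27.8 percentiles on the 2 linear GD8.5 arrays, a wider spread than this SD shows. On the 2 log2 arrays of that stage it ranked at 51.4 and 52.1, and on the later arrays at 23.7 or lower.

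Group 9 genes act at thoracic and lumbar levels, and Hoxc9 is known for setting the thoracic motor columns. Hoxd9 measured 2.02 and 2.02 at GD8.5, then 1.29, 1.42, 1.12 and 1.29 at GD9.0 and then 1.34, 1.20, 1.46 and 1.25 at GD9.5 in log2 levels. The file gave both GD8.5 arrays the same value, which lay above every later array. Its mean was 1.28 ± 0.12 at GD9.0 (SD, n = 4), at least 1.51-fold under that value (adjusted p = 0.000254). Hoxb9 measured 1.89 and 2.13 at GD8.5, then 1.36, 1.63, 1.08 and 1.04 at GD9.0 and then 1.18, 1.29, 1.30 and 1.32 at GD9.5. GD9.0 replicate 2 alone kept a level above the background among the later arrays. Hoxb9 was at least 1.45-fold lower at GD9.0 (adjusted p = 0.00615), a call lost without GD8.5 replicate 4 (-0.61, adjusted p = 0.0888).

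Hoxa9 by its brightest probe set had log2 levels of 2.20 and 2.29 at GD8.5, then 1.93, 1.92, 1.88 and 1.66 at GD9.0 and then 1.95, 1.85, 1.90 and 1.78 at GD9.5. The later stages overlapped each other under the GD8.5 arrays. It was 1.32-fold lower at GD9.0 (log2 change -0.40 ± 0.08 SE, adjusted p = 0.00947), a call lost without GD8.5 replicate 4 (-0.35, adjusted p = 0.105). Hoxc9 measured 2.56 and 2.34 at GD8.5, then 1.96, 2.22, 2.03 and 2.20 at GD9.0 and then 2.10, 1.93, 1.96 and 1.60 at GD9.5. It was 1.47-fold lower at GD9.5 compared with GD8.5 (log2 change -0.55 ± 0.13 SE, adjusted p = 0.00803), with neither interval called on its own, and without GD8.5 replicate 3 the change was -0.44 (adjusted p = 0.0956).

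Of the 10 members with numbers 10 to 13, Hoxa11 was above the background at GD8.5, with a mean log2 level of 1.67, and averaged 1.36 at GD9.0 and 1.29 at GD9.5. Its change of -0.31 ± 0.13 SE in the first interval did not pass (adjusted p = 0.166). Hoxa13, Hoxb13, Hoxc10, Hoxc13, Hoxd10, Hoxd11, Hoxd12 and Hoxd13 were under the background at all 3 stages.

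By cluster, 7 of 10 Hoxb members were lower at GD9.0, against 3 of 10 Hoxa, 2 of 7 Hoxc and 3 of 9 Hoxd members. Whether these shares differ between clusters was not tested, and the number of members above the background at GD8.5 also differed, at 7 in Hoxb, 7 in Hoxa, 4 in Hoxc and 3 in Hoxd.

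Hoxb5os, an RNA read from the strand opposite to Hoxb5 and Hoxb6 and spanning both in the reference annotation, had the most negative measured log2 change of the 36 members, a rank in which changes to levels under the background, such as that of Hoxc8, are lower bounds. It measured 5.54 and 5.52 at GD8.5, then 2.01, 1.73, 1.46 and 1.83 at GD9.0 and then 1.84, 1.71, 1.86 and 1.49 at GD9.5 in log2 levels. The 2 GD8.5 arrays were nearly equal and lay far above all later arrays. It was 13.7-fold lower at GD9.0 compared with GD8.5 (log2 change -3.77 ± 0.14 SE, adjusted p = 1.32e-08), and its change from GD9.0 to GD9.5 was -0.03 ± 0.11 (adjusted p = 0.881). The strand that probe set 1447886_at reads was not checked, so signal of the overlapping genes cannot be told apart from the antisense RNA here. The other antisense members, Hoxa11os and Hoxd3os1, were under the background at all stages by their brightest probe sets.

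Several Hox genes had more than 1 probe set, and these gave different sizes of change. Counted by probe set, 22 of 53 were lower at GD9.0 compared with GD8.5 and 0 were higher, where 4.66% of all 34945 single-gene probe sets were called lower. From GD9.0 to GD9.5 limma called 0 of 53, where 20.4% of all probe sets were called. At an unadjusted p under 0.05, 4 Hox probe sets were lower and 0 were higher. Over the day, GD9.5 against GD8.5, 25 of the 53 were called lower (10.5% of all). With any of its probe sets counted, a gene was lower at GD9.0 in 19 of 36 cases, where 7.21% of all genes were.

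The second probe set of Hoxa9, 1455626_at, measured 4.18 and 3.77 at GD8.5, then 0.91, 1.10, 1.09 and 1.19 at GD9.0 and then 1.17, 1.09, 1.23 and 1.05 at GD9.5 in log2 levels. All 8 later arrays were under the background. By this probe set Hoxa9 was at least 5.86-fold lower at GD9.0 compared with GD8.5 (adjusted p = 1.26e-08), against 1.32-fold by the brightest one.

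The second probe set of Hoxb3, 1456229_at, measured 3.67 and 3.28 at GD8.5, then 1.77, 1.27, 0.94 and 1.40 at GD9.0 and then 1.60, 1.56, 1.50 and 1.77 at GD9.5. The GD9.0 arrays scattered around the background. By it Hoxb3 was at least 3.90-fold lower at GD9.0 (adjusted p = 1.51e-05), and both linear GD8.5 arrays ranked it above all later arrays, at the 77.4 and 74.2 percentiles. Hoxa3 (1427433_s_at), Hoxa5 (1448926_at), Hoxc5 (1439885_at) and Hoxd3os1 (1460056_at), which were not called by their brightest probe sets, were also lower at GD9.0 by a second one, by at least 1.24-fold, 1.24-fold, 1.02-fold and 1.05-fold. The further sets of Hoxa3 and Hoxc5 were not called. Of genes called by their brightest set, Hoxb4 was also lower by its second, 1451761_at (log2 change -0.32, adjusted p = 0.0479). The second sets of Hoxa10 (1446408_at, -0.12, adjusted p = 0.465) and Hoxd8 (1433638_s_at, -0.12, adjusted p = 0.649) were not called. Both lay under the background at all stages. Probe sets of a gene can read different ends or forms of its transcripts, which was not resolved here.

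**Figure D3:**
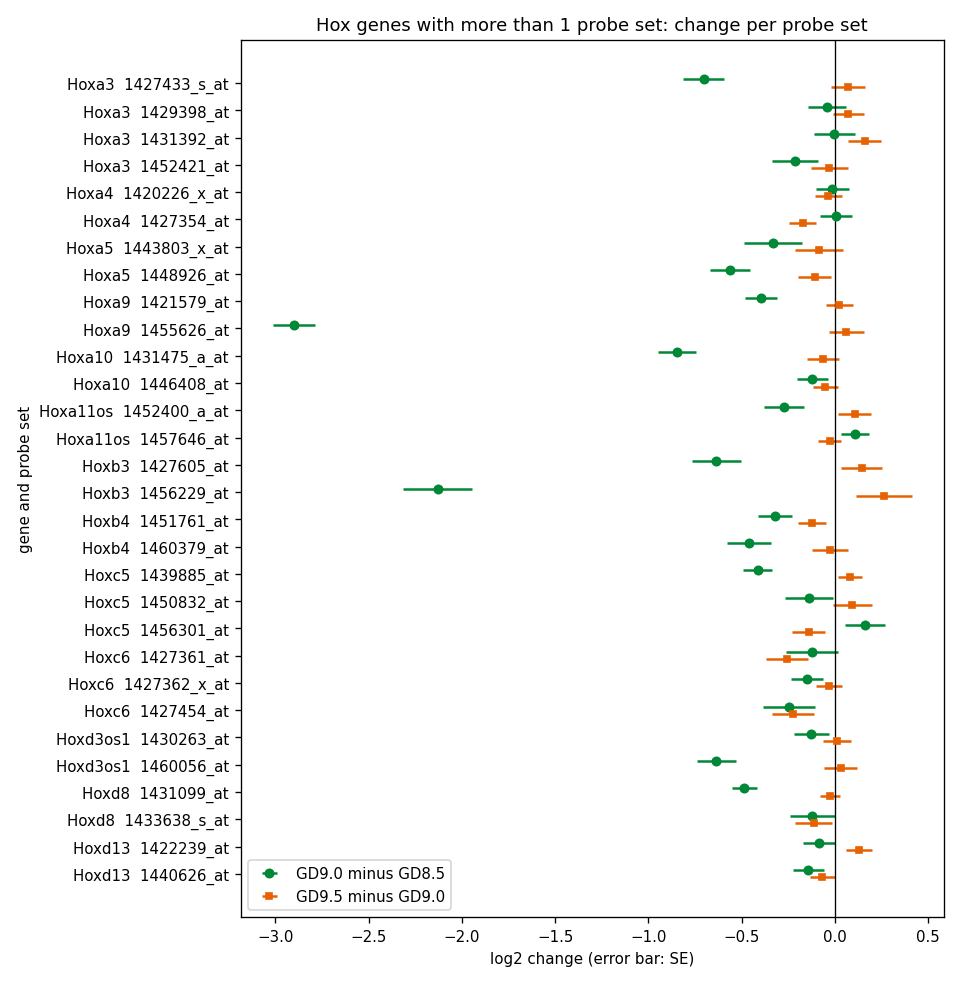
Log2 change with its SE for each probe set of the 13 Hox genes with more than 1, for GD9.0 minus GD8.5 (circles) and GD9.5 minus GD9.0 (squares). The sets 1455626_at of Hoxa9 and 1456229_at of Hoxb3 reach -2.90 and -2.13 in the first interval while the other set of each gene is at -0.40 and -0.63, and the second interval stays near 0 throughout.

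The linear GD8.5 arrays, replicates 1 and 2, took no part in the fit, and their ranks within each array are a view of the same stage in samples that made no call. For 20 of the 22 Hox probe sets called lower at GD9.0, both linear arrays ranked the set higher than all 8 arrays of GD9.0 and GD9.5 did. The exceptions were 1427605_at of Hoxb3 and 1431099_at of Hoxd8. The same held for 25 of all 53 Hox probe sets (47.2%), for 17.9% of all single-gene probe sets and for 67.6% of all probe sets called lower at GD9.0. Hoxb5os ranked at the 86.1 and 88.6 percentiles on these arrays, against 39.9 to 54.5 at GD9.0. As these arrays were summarised on another scale, the ranks are a description with no test.

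**Figure D4:**
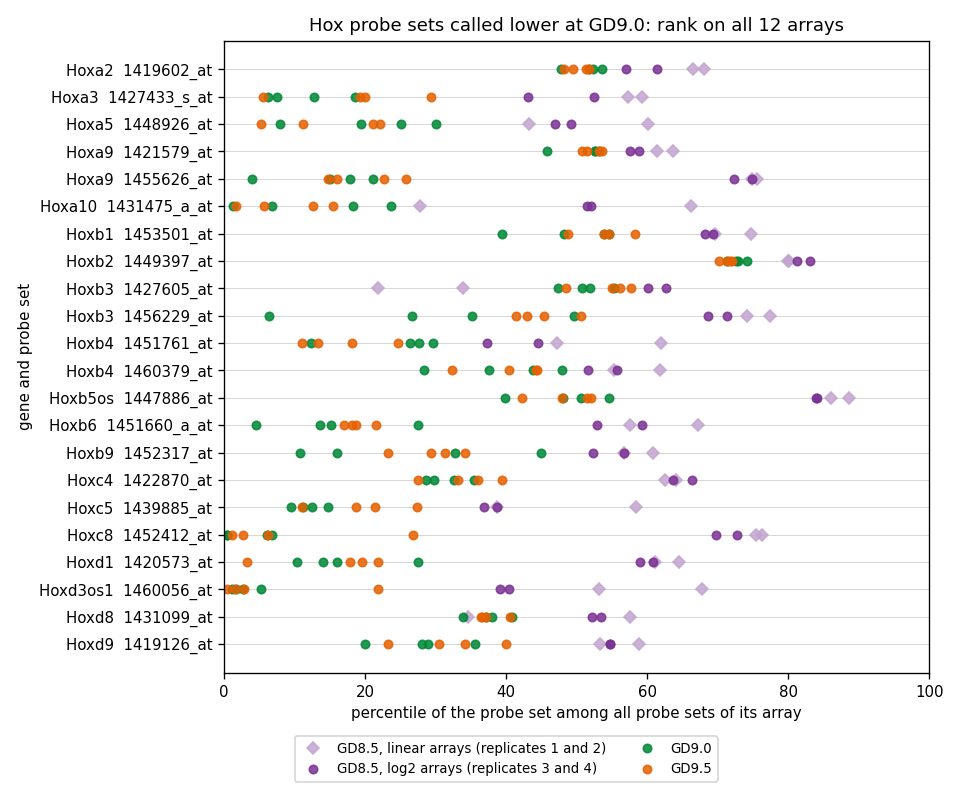
Percentile of each of the 22 Hox probe sets called lower at GD9.0 among all probe sets of its array, for the 2 linear GD8.5 arrays (diamonds), the 2 log2 GD8.5 arrays and the 4 arrays each of GD9.0 and GD9.5 (circles). The diamonds lie right of every GD9.0 and GD9.5 circle except for 1427605_at of Hoxb3 and 1431099_at of Hoxd8.

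Partners and regulators of Hox genes are set here against shares over all genes of 6.74% lower and 6.78% higher in the first interval, and 24.3% called in either direction in the second. Of 8 measured TALE class cofactors, which bind DNA with Hox proteins, 1 rose from GD8.5 to GD9.0, Pbx2 (log2 change 0.24 ± 0.06 SE), and 0 were called lower, with 2 lower at an unadjusted p under 0.05. From GD9.0 to GD9.5 Meis1 (0.39 ± 0.07), Pbx3 (0.32 ± 0.08) and Pbx2 (0.31 ± 0.05) rose and 0 were called lower, with 1 lower at an unadjusted p under 0.05. Of 22 measured Polycomb and MLL genes, which hold Hox genes silent or active, 1 rose in the first interval (Bmi1, 0.42 ± 0.07) and 0 were called lower, with 3 lower at an unadjusted p under 0.05. In the second interval 5 of the 22 rose, among them Bmi1 (0.50 ± 0.06) and Phc2 (0.49 ± 0.06), and 2 fell, Mtf2 (-0.33 ± 0.05) and Ezh1 (-0.23 ± 0.07). The first-interval counts of both lists, and the second-interval count of the Polycomb and MLL genes, 7 of 22, were near the shares over all genes.

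The lists of caudal factors, hindbrain segment regulators and retinoic acid genes held members that fell. The hindbrain and retinoic acid lists also held members that rose. Of 9 measured caudal factors 5 fell from GD8.5 to GD9.0 and 0 rose, and they had a median log2 change of -0.62. Cdx1, Cdx2 and Cdx4, caudal homeobox activators of trunk Hox genes, averaged log2 levels of 1.33, 1.65 and 0.98 at GD9.0 and 1.94, 2.66 and 3.35 at GD8.5. The GD9.0 means of Cdx1 and Cdx4 were under the background. Nkx1-2, a marker of caudal neural progenitors, averaged 1.15 at GD9.0, under the background, and 4.09 at GD8.5. Sall4, named after its values were seen, averaged 7.19 at GD9.0 and 7.88 at GD8.5. Of 8 hindbrain segment regulators 4 fell, Sall4 again among them, and 2 rose. Egr2, which activates Hoxa2 and Hoxb2 in the hindbrain, averaged 4.20 at GD8.5, then 1.90 at GD9.0 and then 0.98, under the background, at GD9.5. Of 18 retinoic acid genes 4 fell and 4 rose. Cyp26a1, which breaks retinoic acid down, averaged 2.39 at GD9.0 and 5.14 at GD8.5. Aldh1a3, which makes it, averaged 4.05 at GD9.0 and 2.40 at GD8.5. Aldh1a2, which also makes retinoic acid, averaged 1.40 at GD9.0, under the background, and 3.99 at GD8.5. Aldh1a2 and Rbp4, both among the 4 that fell, are also counted below, with paraxial mesoderm and with yolk sac markers.

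Markers of other tissues moved in the same interval, in which 6.74% of all genes were called lower and 6.78% higher. Of 15 paraxial mesoderm markers 6 fell and 0 rose at GD9.0, with a summed log2 level of 26.6 to 28.9 on the GD9.0 arrays and 34.8 to 35.2 on the GD8.5 arrays, and with 6 of them above the background at GD9.0 and 9 at GD8.5. Aldh1a2, the retinoic acid synthase of that tissue, averaged 1.40 at GD9.0, under the background, and 3.99 at GD8.5. Of 14 lateral plate markers 8 fell and 1 rose, with sums of 34.0 to 34.9 at GD9.0 and 44.9 to 45.2 at GD8.5, and with 10 above the background at GD9.0 and 14 at GD8.5. Of 14 cardiac muscle markers 13 fell (39.8 to 40.9 at GD9.0 and 71.3 to 72.2 at GD8.5) and of 13 endoderm and yolk sac markers 13 fell (43.1 to 44.0 at GD9.0 and 79.6 to 79.8 at GD8.5), with 12 of each above the background at GD9.0. From GD9.0 to GD9.5, where 1868 of all 18193 genes were called lower and 2561 higher, 11 members of each of these 2 lists fell. In that interval the paraxial mesoderm markers had 0 lower and 1 higher, and the lateral plate markers 2 lower and 3 higher. The 9 caudal factors had 1 lower and 1 higher. Of 14 neural progenitor markers, listed for hindbrain and spinal cord, 13 were above the background at GD9.0 and 10 at GD8.5. Under it at GD8.5 were Nkx6-2, Olig2, Dbx2 and Lmx1a. The list checks the neural label and does not tell body levels apart. Of these 14 markers 5 rose and 0 were called lower. Of 13 forebrain and midbrain factors, of regions that express no Hox genes, 7 rose and 2 fell. Neural crest markers (12 measured) had 6 lower and 2 higher at GD9.0, endothelial markers (10) 2 lower and 1 higher (1 in 10 is near the share over all genes), and primitive erythroid markers (9) 0 lower and 6 higher. The part of these tissues, and of differences in the body levels dissected, in the Hox values was not tested.

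**Figure D5:**
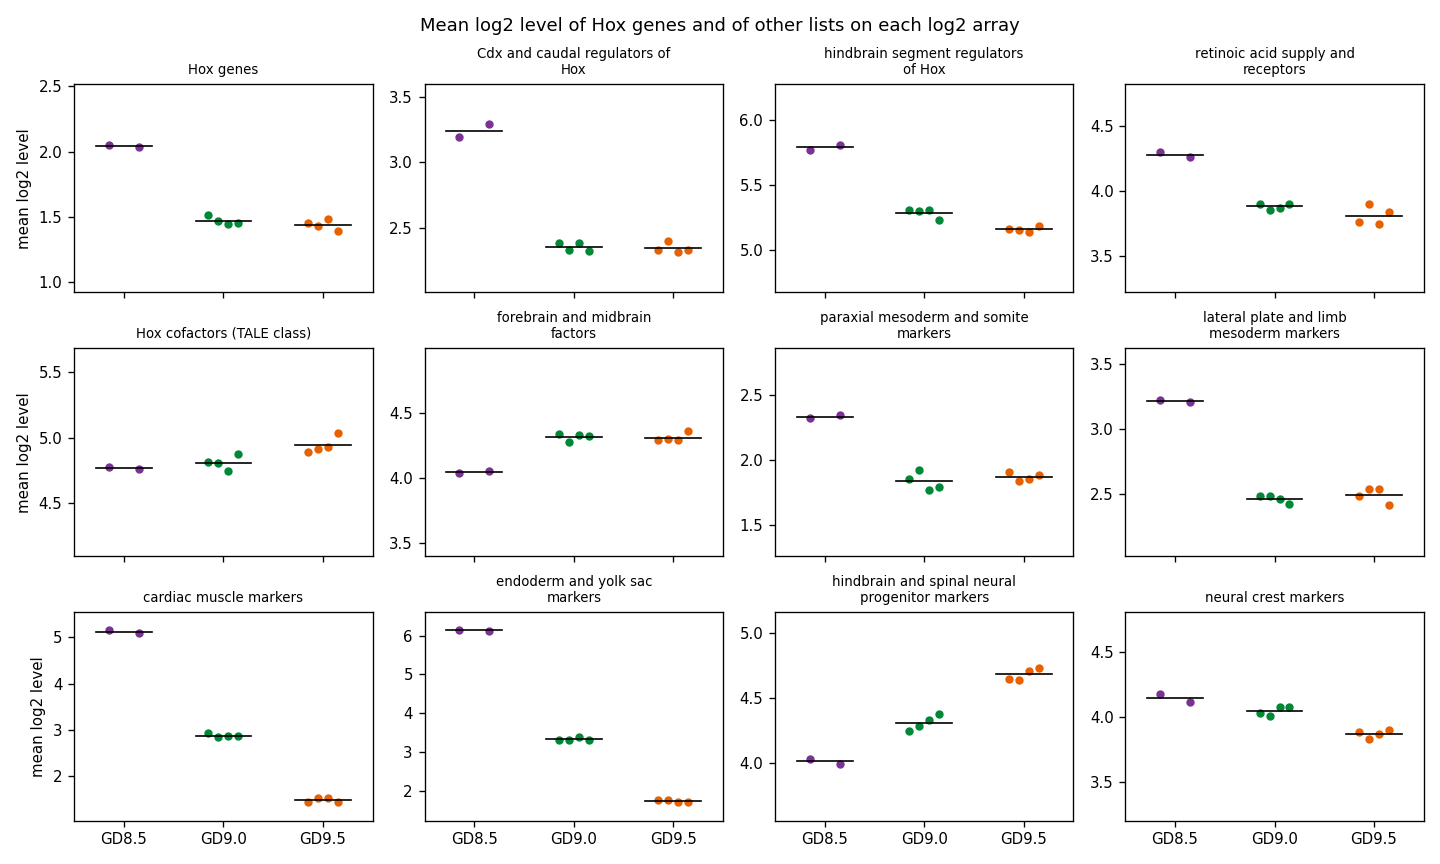
Mean log2 level of the 36 Hox genes and of 11 other gene lists on each of the 10 log2 arrays (points), with stage means (bars); each panel has its own range of at least 1.6. The Hox panel has its highest stage mean at GD8.5. So do those of caudal factors, hindbrain segment regulators, retinoic acid genes, paraxial mesoderm, lateral plate, cardiac muscle, yolk sac and neural crest. The panels of neural progenitors, of forebrain and midbrain factors and of TALE cofactors have their lowest stage mean there.

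RNA measures also differed between stages. The log2 signal of the 3′ minus the 5′ actin control averaged 0.71 ± 0.02 at GD8.5, then 0.56 ± 0.03 at GD9.0 and then 0.93 ± 0.03 at GD9.5 (SD, n = 2, 4 and 4). The 18S control averaged 9.82 ± 0.01 at GD8.5, then 8.81 ± 0.18 at GD9.0 and then 10.3 ± 0.09 at GD9.5. Their part in the Hox values was not tested.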

How the data were processed

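RNA of 12 mouse neural tube samples, 4 per stage, was measured on 1 array each. The authors deposited log2 probe set levels for 10 arrays, normalized across arrays (sorted values differed by at most 0.27), and linear intensities for GD8.5 replicates 1 and 2. Affymetrix Expression Console 1.2.1, RMA and GCRMA are named, with no role or order, in the submitters' processing notes; no build was named. The 2 deposited intensity columns were used only as within-array percentiles and in 1 alternative.

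Of 45101 probe sets, 64 control sets were left out, 34945 named 1 gene, 932 several and 9160 none in the platform annotation. Each of 18193 genes was represented by its brightest single-gene probe set. The model, run in R 4.3.3 with limma 3.58.1 on the 10 log2 arrays (lmFit and eBayes, a mean per stage, 7 residual degrees of freedom, prior 3.86), had Benjamini-Hochberg adjustment over all genes or all single-gene probe sets. A call is an adjusted p under 0.05. The fit was tested on simulated data. The reported fit has no replicate block, because nothing in the labels ties equal numbers to a shared litter or day.

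Values in every array are given for Hox genes called in any pairwise comparison or above the background at all 3 stages; of other lists, Hox cofactors, Cdx genes and up to 2 called genes per direction are named. Members, lists, background and tests were chosen with earlier results of these data known. Promoters came from a RefSeq table (GRCm38.p6). Alternatives covered gene summary, dim probe sets, normalization, all 12 arrays, spread, array weights, a replicate block and leaving out each array.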

Additional observations from a re-analysis of the deposited data

Results flagged for a closer look

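On 1 of 40 sets of 4 arrays examined among the named Hox genes, a single array lay far from the others. At GD9.5 replicate 1 of Hoxd1 had a log2 level of 0.88, against 1.11 to 1.15 on the other arrays, a gap of 0.866 of the whole range, and all these levels were under the background. Chance alone marks about 5% of such sets.

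The change from GD9.0 to GD9.5 differed from the change from GD8.5 to GD9.0 for 11 Hox genes by the limma contrast of the intervals, which share the GD9.0 arrays. The log2 difference, second interval minus first, was 3.74 for Hoxb5os, 2.90 for Hoxc8, 1.70 for Hoxb1, 1.54 for Hoxc4, 1.22 for Hoxb2, 1.21 for Hoxd1, 1.06 for Hoxb6, 0.78 for each of Hoxa10, Hoxb3 and Hoxd9, and 0.46 for Hoxd8. For Hoxa10, Hoxb6, Hoxc4, Hoxc8, Hoxd1 and Hoxd9 the GD9.0 mean was under the background, where a further fall could not be measured.

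The 3 probe sets that name 2 Hox genes each, which entered no comparison, had signal above the background at GD8.5. Those of Hoxd4 with Hoxd3 had mean log2 levels of 2.64 at GD8.5, then 2.08 at GD9.0 and then 1.99 at GD9.5, and of 1.58, 1.12 and 1.11 at the same stages. The set of Hoxb8 with Hoxb7 had 1.62 at GD8.5, then 0.99 at GD9.0 and then 0.98 at GD9.5. Which gene of each pair gave the signal was not resolved.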

How the results depend on the processing

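Counts of called Hox genes kept their direction and stayed within 1.5 times the reported count in the first interval, over the day and for the difference between the intervals under every alternative run. With 1 array left out at a time the counts ran from 11 to 16, from 17 to 20 and from 10 to 12. The second interval had 0 called genes except without GD9.0 replicate 2 and without GD9.5 replicate 3 (range 0 to 1, Hoxa7 lower in both). By probe set it had 0 except without GD9.0 replicate 1, 2 or 4 (range 0 to 1, with 1456229_at of Hoxb3 higher, Hoxa7 lower and 1431392_at of Hoxa3 higher).

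With the replicate number as a block 13, 0 and 19 genes were called in the first interval, the second and over the day, and 1 probe set in the second, 1427454_at of Hoxc6, which was lower. Same-numbered arrays correlated at -0.06 to 0.10 in their deviations from stage means, so the numbers were not taken to pair samples. The block cost Hoxa2 and Hoxb4 their calls in the first interval and Hoxd3 its call over the day.

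With all 12 arrays quantile normalized together, 14 genes were called in the first interval, 13 of them shared with the 15 reported. Hoxb3 turned to 0.057 at GD9.0 and to 0.22 at GD9.5 against GD8.5, neither called; the linear arrays ranked its probe set low. Of the 15 genes of the first interval, 9 kept their call under all 20 alternatives: Hoxa10, Hoxb1, Hoxb2, Hoxb5os, Hoxb6, Hoxc4, Hoxc8, Hoxd1 and Hoxd9. The choice of the probe set with the highest mean at any 1 stage was added after seeing the data and gave 17 genes in the first interval. Leaving out a GD8.5 array left 1 there, assumed to vary like the other groups. Signals near the background limit the size of falls that could be measured.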
